A study of Arabidopsis thaliana with 15 samples.

Results

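A group of 110 probe sets read low in Arabidopsis roots that overexpressed a microRNA-resistant GRF3, while their signal in roots overexpressing the matching form of GRF1 stayed near that of the wild type. They were chosen from 22810 probe sets, of which 64 are controls. A member had a mean log2 signal over 15 arrays at or above the 40th percentile of the other 22746 (6.84, a signal of 115), which 13648 probe sets reached. Its mean in P35S:rGRF3 was at least 0.7 lower on the log2 scale (1.62-fold) than the means of both Col-0 and WS, and its mean in P35S:rGRF1 lay within 0.4 of Col-0. The differences of P35S:rGRF3 from both wild types and of P35S:rGRF1 from Col-0 therefore chose the members and are given below as a description, with no test. The same rule with the sign of the P35S:rGRF3 differences turned holds for 97 probe sets.

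Growth-regulating factors (GRFs) are plant transcription factors that bind DNA and act with GRF-interacting factor coactivators. They are best known for keeping cells dividing in young leaves and in the root meristem, and the microRNA miR396 lowers most of their transcripts. A transgene whose miR396 site is altered escapes this control, so its product can build up where miR396 normally acts.

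Roots of plants aged 2 weeks were compared across 5 genotypes with 3 arrays each. Col-0 and WS were unmodified wild type ecotypes. The triple mutant grf1/grf2/grf3 carried mutations in 3 GRF genes, and its labels give both Col-0 and WS as ecotype, so neither wild type alone matches it. The overexpressors, P35S:rGRF1 with the ecotype label Col-0 and P35S:rGRF3 with the ecotype label WS, each carried a miR396-resistant GRF behind the CaMV 35S promoter, which is active in most plant tissues and not only where the native gene is on. All plants grew on modified Knop's medium. The labels do not say whether the replicates were separate cultures or how many independent lines stand behind each transgene, so every p-value measures the spread between these samples only. In whole roots, fewer cells of a type and less RNA per cell cannot be told apart. The transcripts of GRF1, GRF2 and GRF3 were not analysed here, so the genotypes were not checked against them.

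The arrays fell into 2 sets by their hybridization controls, RNAs added in fixed amounts, whose mean log2 signal was 10.72 to 11.20 on the WS and mutant arrays and 9.68 to 10.33 on the others. A comparison of the mutant with WS, or of P35S:rGRF3 with Col-0, stays inside 1 set. Comparing the mutant with Col-0, or P35S:rGRF3 with WS, crosses from one set to the other, where the set cannot be told apart from the genotype. By limma's test (adjusted p under 0.05) P35S:rGRF3 was higher than Col-0 at 5.3% of tested probe sets and lower at 6.61%. Against WS, its ecotype label, the shares were 19.4% and 33%. How far that label describes the background of the line was not tested. The poly-A controls read 6.96 on P35S:rGRF3 replicate 3 and 8.78 and 9.02 on the other 2 arrays of that line. No 2 arrays held identical values, and array medians differed by at most 0.15. The root marker EXPA7, an expansin of root hair cells, was the only gene of 18 root symbols named on the array, at group means of 9.06 to 9.88. Of 20 shoot symbols 2 were named. The log2 of their summed signal was 9.50 to 10.34 in Col-0, 10.35 to 10.46 in WS, 9.998 to 10.54 in the mutant, 10.03 to 10.30 in P35S:rGRF1 and 9.52 to 9.76 in P35S:rGRF3. Most of that sum was RCA, rubisco activase, which was lower in P35S:rGRF3 than in WS by 0.81 (limma adjusted p = 0.00173) and differed from Col-0 by -0.43 (adjusted p = 0.157). The part of shoot tissue or plastid content in the results below was not tested.

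The members' low signal in P35S:rGRF3 was present on each of its 3 arrays. Set against the mean of the Col-0 and WS means, the median over the 110 members was -1.13, -0.98 and -1.02 on the log2 scale on P35S:rGRF3 replicates 1, 2 and 3. The corresponding medians were -0.17 to -0.05 on Col-0, 0.07 to 0.14 on WS, -0.15 to -0.12 on P35S:rGRF1 and 0.02 to 0.25 on the mutant arrays. No array of another genotype came near the P35S:rGRF3 arrays, and all 110 members read below the wild type mean on each of the latter. Since the rule chose the members by the Col-0, WS, P35S:rGRF1 and P35S:rGRF3 means, the values of these genotypes describe the choice and do not test it. The difference from Col-0 ranged from -2.60 to -0.70 with a median of -0.89, and that from WS from -4.30 to -0.71 with a median of -1.09. Over all 13648 probe sets the medians were -0.02 and -0.13.

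**Figure D1:**
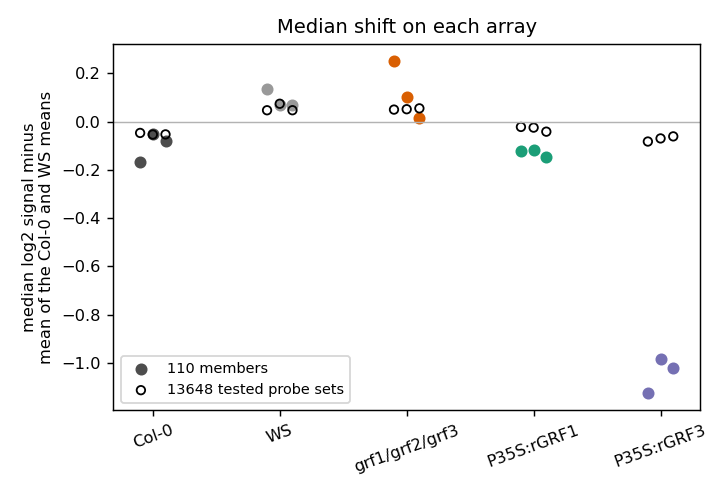
Median log2 signal on each array minus the mean of the Col-0 and WS means (y axis), by genotype (x axis), for the 110 members (filled points) and all 13648 tested probe sets (open points). The 3 P35S:rGRF3 arrays lie between -1.13 and -0.98 for the members, and the other 12 arrays between -0.17 and 0.25. The members were chosen by the means of all genotypes shown other than the mutant, so the gap is not a test.

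The smaller of a member's 2 differences was the one that decided its choice, and it was at least 1 for 25 members and between 0.7 and 1 for 85. Just inside the limit were AT1G19190 (-0.71) and 2 probe sets with no gene in the annotation (-0.70 each), and just outside it AT3G03170 and 2 unannotated probe sets, all at -0.70 after rounding. The limit thus cuts through a continuous range. In 93 members all 3 P35S:rGRF3 arrays lay below all 9 arrays of Col-0, WS and P35S:rGRF1, which held for 4.62% of all tested probe sets. Since the rule used these arrays, the count describes the members only.

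The choice was repeated without each P35S:rGRF3 array, and the left-out array was then read against the wild type means. Without replicate 1, 108 probe sets were chosen, of which replicate 1 put 105 below both wild type means and 68 at least 0.7 below both. Without replicate 2, 157 were chosen, of which replicate 2 put 145 below both and 65 at least 0.7 below. Without replicate 3, 147 were chosen, and replicate 3 put 138 below both and 56 at least 0.7 below. The wild type arrays, which the rule required to read high, were used in both steps, and the share over all probe sets was not computed. These counts therefore describe the choice and do not test the difference.

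**Figure D2:**
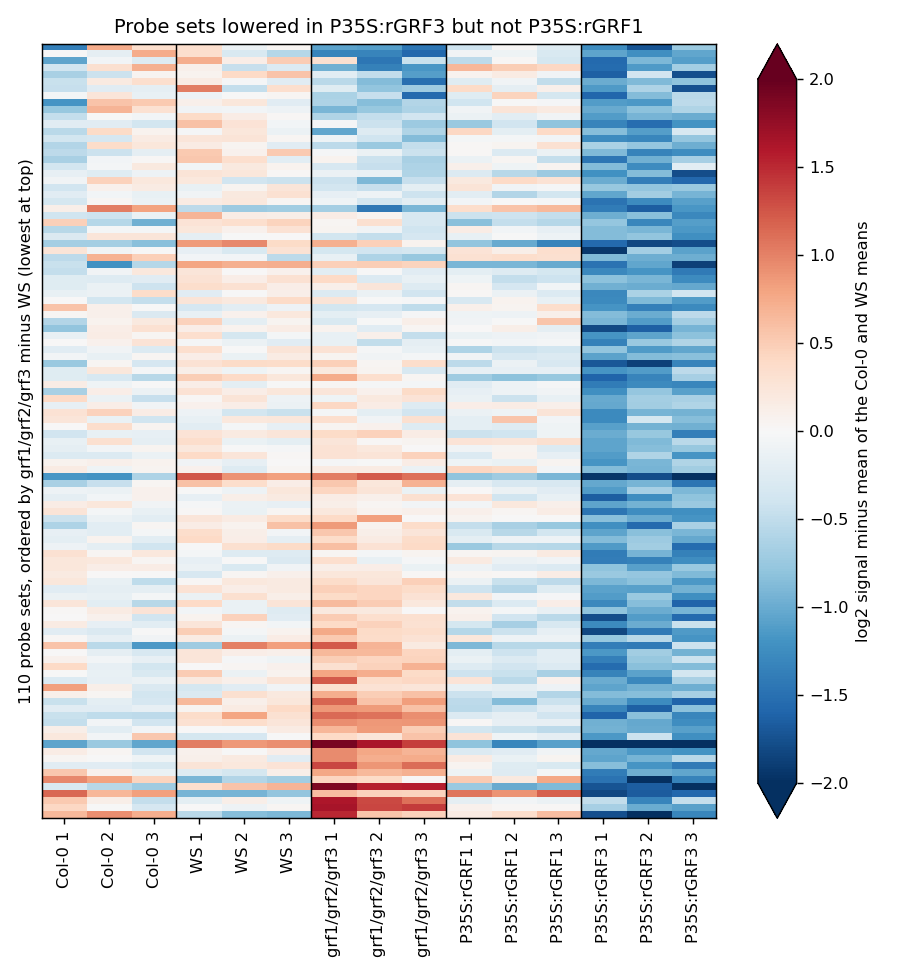
Log2 signal of each member (rows) on each array (columns) minus the mean of its Col-0 and WS means, with rows ordered by the difference of grf1/grf2/grf3 from WS and colours limited to 2 in either direction. The P35S:rGRF3 columns are blue throughout, the P35S:rGRF1 columns are mostly pale, and the mutant columns run from mostly blue at the top to mostly red at the bottom.

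Of the 110 members 46 have 1 gene in the annotation, 2 have several and 62 have none, so functions can be given for fewer than 46 genes. These functions are textbook knowledge of the gene families and not results. They cover cell surface kinases, membrane transport, enzymes of specialised metabolism, auxin and small RNA genes, ubiquitin ligase families, lectins and cytoskeletal proteins. The grouping was made after the members were known and was not tested for enrichment.

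Receptor-like kinases, which sense signals at the cell surface, were 5 of the annotated members. AT4G39270, with leucine-rich repeats, read 8.92 to 9.05 in P35S:rGRF3, 10.47, 10.24 and 10.30 in Col-0, and 10.44, 10.12 and 10.31 in WS. It read 10.10, 10.21 and 10.28 in P35S:rGRF1 and 10.36, 10.29 and 10.28 in the mutant. The P35S:rGRF3 arrays thus stood apart from the 12 others, which overlapped among themselves. The difference was -1.35 from Col-0 and -1.30 from WS. AT5G39020, a malectin-domain kinase, read 6.75, 6.36 and 6.16 in P35S:rGRF3 and 7.31 to 8.20 in the wild types, and its mutant arrays (6.84 to 7.31) lay between these ranges, the highest of them at the lowest WS array. The leucine-rich repeat kinases AT1G79620 and AT5G65240 and the S-locus lectin kinase AT1G11410 had smaller differences from the nearer wild type, of -0.96, -0.93 and -0.82. In the mutant against WS the 5 kinases did not pass limma's test (adjusted p = 0.0751 to 0.939). Against Col-0, across the array sets, AT1G79620 rose by 1.19 (SE 0.19, adjusted p = 1.10e-04) and AT5G65240 by 0.47 (SE 0.15, adjusted p = 0.0155), while AT5G39020 fell by 0.80 (SE 0.21, adjusted p = 0.00504).

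AT4G00700, a protein with C2 domains, which bind calcium and lipids, had a pattern like that of AT4G39270. It read 8.56, 8.77 and 8.79 in P35S:rGRF3 against 9.86 to 10.28 in Col-0, 9.88 to 10.06 in WS, 10.05 to 10.17 in P35S:rGRF1 and 10.08 to 10.23 in the mutant. Its differences were -1.33 from Col-0 and -1.29 from WS. In the mutant it differed from WS by 0.15 (SE 0.12, limma adjusted p = 0.464). Intracellular kinases among the members were AT2G43850, of the integrin-linked kinase family, at -0.71 from the nearer wild type, and AT5G24240, of the phosphatidylinositol 4-kinase family, at -0.97. AT5G24240 also differed between the wild types, with 6.68 to 7.26 in Col-0 and 8.69 to 9.11 in WS.

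Membrane transport proteins were 6 of the members. AT3G45710 belongs to the nitrate and peptide transporter family, which moves nitrate and other small solutes. It read 8.69, 8.02 and 9.14 in P35S:rGRF3 against 11.11, 11.38 and 11.17 in Col-0, 9.92, 9.60 and 9.55 in WS, and 10.62, 10.81 and 11.08 in P35S:rGRF1. The P35S:rGRF3 arrays were the lowest, and WS lay between them and Col-0. A further member of that family, AT2G40460, read 0.85 below Col-0 and 0.94 below WS in P35S:rGRF3 (8.02 to 8.47 against 9.03 to 9.37 in the wild types).

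The P4-type ATPases AT1G68710 and AT1G72700 belong to the family of flippases that move phospholipids between the sides of a membrane. AT1G68710 read 7.06, 7.46 and 7.90 in P35S:rGRF3, 8.54 to 8.80 in Col-0 and 8.55 to 8.88 in WS. AT1G72700 read 9.14, 9.60 and 9.34 in P35S:rGRF3, 9.98 to 10.29 in Col-0 and 10.39 to 10.53 in WS. Neither range in P35S:rGRF3 overlapped those of the wild types. The MATE efflux gene AT5G38030 and the major facilitator gene AT3G60070 complete the group, the latter at -0.78 from the nearer wild type.

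AT5G38030 lies next to AT5G38020 in the gene order of assembly TAIR10.1, with 0 protein-coding genes between them, and both are members. AT5G38020 encodes a SABATH family methyltransferase, a group that methylates small acids such as plant hormones. It read 10.02, 10.11 and 9.57 in P35S:rGRF3, 11.44, 11.19 and 11.04 in Col-0, 12.09, 12.32 and 12.43 in WS, and 11.01, 10.75 and 10.87 in P35S:rGRF1. AT5G38030 read 10.19, 10.07 and 10.03 in P35S:rGRF3, 11.37, 11.26 and 10.84 in Col-0, 11.30, 11.21 and 11.35 in WS, and 10.95, 11.00 and 11.16 in P35S:rGRF1. In both genes P35S:rGRF3 was the lowest genotype without overlap. The only other pair of annotated members within 10 genes of each other was AT5G39020 and AT5G39090, with 5 genes between them.

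Other enzymes included the largest difference. AT3G56080, of a methyltransferase family, read 5.46, 4.65 and 2.80 in P35S:rGRF3, 6.62 to 6.92 in Col-0, 6.36 to 6.86 in P35S:rGRF1 and 8.53 to 8.69 in WS. Its P35S:rGRF3 and Col-0 means lie below the filter value of 6.84, which it passed through the WS and mutant arrays, so the sizes of -2.42 and -4.30 rest on dim signals. In all, 26 of the 110 members had a P35S:rGRF3 mean under that value. AT5G39090, of the HXXXD acyltransferase family, read 6.22, 6.65 and 5.90 in P35S:rGRF3 and 6.95 to 7.90 in the wild types. CYP71B28, a cytochrome P450, read 7.75 to 8.10 in P35S:rGRF3, 8.96 to 9.06 in Col-0 and 8.52 to 8.76 in WS. The class III peroxidase gene AT2G34060, the hydrolase genes AT1G18460 and AT1G19190 and the dihydrofolate reductase-thymidylate synthase family gene AT2G21550 differed from the nearer wild type by -0.83 to -0.71.

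BGLU45, a beta-glucosidase that releases monolignols, the building blocks of lignin, from their glucosides, varied more among replicates. It read 6.39, 5.89 and 6.88 in P35S:rGRF3, 6.26, 8.36 and 7.98 in Col-0, 7.97, 7.51 and 7.66 in WS, and 7.20, 7.64 and 7.37 in P35S:rGRF1. Col-0 replicate 1 lay within the P35S:rGRF3 range, so the groups overlapped. The difference from Col-0 was -1.15, and that from WS, whose arrays did not overlap those of P35S:rGRF3, was -1.33.

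GH3.17, which joins auxin to amino acids and so lowers the free hormone, and AGO7, the Argonaute protein of the trans-acting siRNA pathway that limits auxin response factors, are both members. GH3.17 read 9.99, 10.40 and 10.34 in P35S:rGRF3, 11.92, 11.46 and 11.26 in Col-0, 11.13, 11.03 and 11.51 in WS, and 11.30, 11.13 and 11.35 in P35S:rGRF1. AGO7 read 6.27, 5.97 and 6.61 in P35S:rGRF3, 6.99 to 7.15 in Col-0 and 7.36 to 7.53 in WS. Neither overlapped the wild types. Of the auxin list of 36 symbols, 3 genes were tested. WES1, a further GH3 gene, and LBD16, a transcription factor of lateral root formation, were the other two. They differed from Col-0 in P35S:rGRF3 by 0.13 (adjusted p = 0.631) and -0.29 (adjusted p = 0.363). Against WS, across the array sets, WES1 was lower by 0.57 (adjusted p = 0.00333), as were 33% of all tested probe sets. For WES1 the WS mean was itself 0.69 above the Col-0 mean.

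The remaining annotated members fall into small groups. Ubiquitin ligase families gave the RING-type genes AT5G59000 and AT1G72220 and the U-box gene AT2G45920. AT5G59000 read 5.78, 6.45 and 6.01 in P35S:rGRF3 and 7.18 to 8.02 in the wild types, with differences of -1.39 and -1.58. Defence-related and storage-like folds gave the jacalin-related lectin gene JAL22, the cupin gene AT3G10080 and AT1G70880, of the major latex protein-like family. AT1G70880 read 7.63, 7.80 and 8.49 in P35S:rGRF3, 8.64, 9.56 and 9.72 in Col-0 and 9.50 to 9.57 in WS, so its highest P35S:rGRF3 array came close to the lowest Col-0 array. JAL22 read 11.16, 11.09 and 10.86 in P35S:rGRF3, 11.64 to 12.06 in Col-0 and 12.36 to 12.47 in WS.

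SP1L5, of a family of microtubule-associated proteins, and the filament-like genes AT3G19370 and AT3G05270 differed from the nearer wild type by -0.71, -0.89 and -0.82. NdhS encodes a subunit of the NADH dehydrogenase-like complex of chloroplasts, and AT5G51220 a protein of the ubiquinol-cytochrome c chaperone family of mitochondria. NdhS read 5.75, 6.48 and 6.80 in P35S:rGRF3 and 7.19 to 7.59 in the wild types. AT1G21680, a protein with a TolB-like fold, read 9.85 to 10.62 in the wild types and differed in P35S:rGRF3 by -1.28 from Col-0 and by -1.63 from WS. AT5G12280, with an RNA-binding surp domain, is described with the mutant. No role is given for AT1G80180, AT3G49790, AT3G14280, AT1G64405, AT2G35585, AT1G68490, AT3G60850 and AT5G18850, whose differences from the nearer wild type were -0.91 to -0.73.

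**Figure D3:**
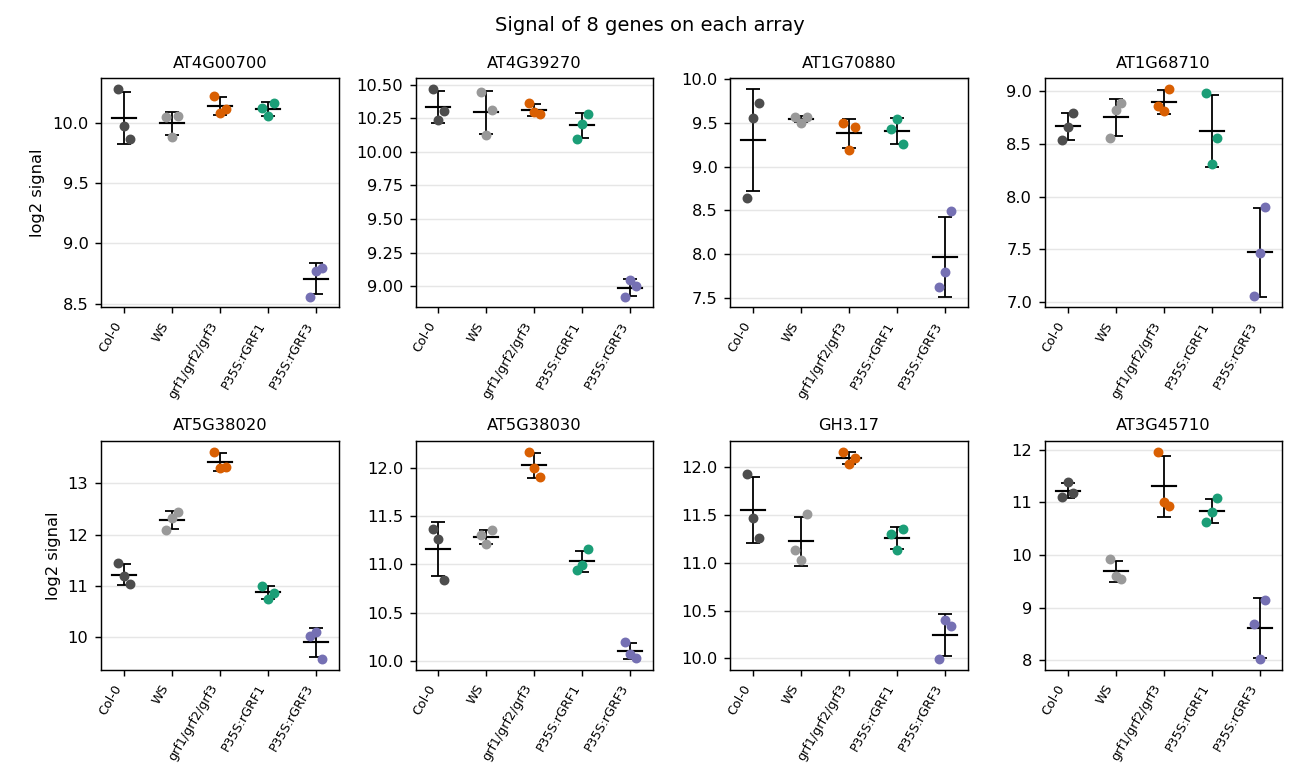
Log2 signal (y axis, a separate range for each gene) of 8 members on each array, by genotype, with the mean (line) and SD (bars, n = 3). P35S:rGRF3 is the lowest genotype in every panel, and the mutant lies with the wild types for AT4G00700, AT4G39270, AT1G70880 and AT1G68710 and above WS for the 4 genes of the lower row.

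In P35S:rGRF1 the rule kept the members between -0.40 and 0.40 of Col-0, and their median difference was -0.10 (0.03 over all tested probe sets). A limit of 0.4 does not show that P35S:rGRF1 and Col-0 were equal for a gene. The wild types themselves lay within 0.4 of each other for 67 members and over 1 apart for 9. By limma's test the WS level exceeded the Col-0 level for 29 members (26.4%, against 31.4% of all tested). It was under the Col-0 level for 9 (8.18%, against 20.3% of all tested). The rule used both groups of arrays, and this comparison crosses the array sets, so the counts describe the members only.

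The level in the triple mutant is the measurement that the rule did not use, other than through the mean over all arrays. The comparisons with WS and Col-0 still share wild type arrays with the rule, which required those arrays to read high. The mutant mean went both ways: it was above both wild type means for 51 members, between them for 26 and below both for 33. For 37 members it was within 0.4 of both. The shares of all tested probe sets in these positions were not computed, so the counts describe the members only.

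Against WS, within 1 array set, 16 members were higher in the mutant and 8 lower at an adjusted p under 0.05 in limma's fit over all 13648 probe sets. These are 14.5% and 7.27% of the members, where 7.38% and 6.54% of all tested probe sets were higher and lower. The share that was higher lay above the background, and the share that was lower was near it. However, the filter counted the mutant arrays in its mean and so favoured a high mutant level. The probe set 264587_at, 1 of the 16, had a mutant mean of 8.07 and means of 5.81 to 7.20 in the other genotypes. It passed the filter only with its mutant arrays counted. How far the filter shaped the shares was not tested, so those against WS and Col-0 describe the members only. The median difference from WS was 0.10 over the members and -0.01 over all tested. Against Col-0, across the array sets, 39 were higher and 14 lower, where 28.1% and 17% of all tested were higher and lower, with a median of 0.16 against 0.10. All 3 mutant arrays lay above all 6 wild type arrays for 20 members (6.39% of all tested) and below all 6 for 8 (4.14%). The count of lower members against WS changed when single arrays were left out. Leaving out mutant replicate 2 or 3 gave 3 or 4, and leaving out WS replicate 1 or 3 gave 3 or 5. Leaving out Col-0 replicate 1, which is in neither group compared, gave 15. The cause of these changes, in the members chosen or in the calls, was not tested.

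**Figure D4:**
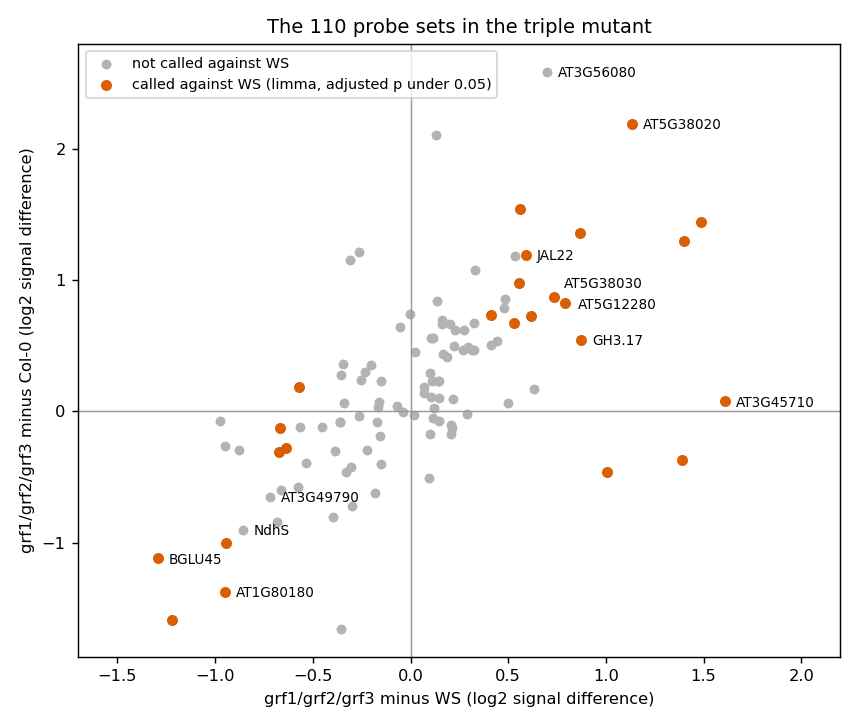
Log2 signal difference of grf1/grf2/grf3 from WS (x axis) and from Col-0 (y axis) for the 110 members. The 24 members called against WS are orange, 16 to the right of 0 and 8 to the left, and both axes use the same mutant arrays, so the slope of the cloud is not a result.

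Annotated members that rose in the mutant against WS were AT3G45710, AT5G38020, GH3.17, AT5G12280, AT5G38030, JAL22 and AT1G72700. AT5G38020 read 13.62, 13.30 and 13.32 in the mutant, above the 12.09 to 12.43 of WS and the 11.04 to 11.44 of Col-0. The rise was 1.13 over WS (SE 0.15, limma adjusted p = 1.65e-04) and 2.19 over Col-0 (adjusted p = 1.02e-08). Its neighbour AT5G38030 read 12.17, 11.99 and 11.91, above every wild type array. It rose by 0.74 over WS (SE 0.13, adjusted p = 0.00111) and by 0.87 over Col-0 (adjusted p = 3.97e-05). For both neighbours the order of the genotypes was thus P35S:rGRF3 lowest and the mutant highest.

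GH3.17 read 12.16, 12.03 and 12.09 in the mutant, above the 11.03 to 11.92 of the wild types. Its rise was 0.87 over WS (SE 0.16, adjusted p = 0.00202) and 0.55 over Col-0 (adjusted p = 0.0111). JAL22 read 13.04, 12.97 and 13.00, also above all wild type arrays. It rose by 0.59 over WS (SE 0.11, adjusted p = 0.00219) and by 1.19 over Col-0 (adjusted p = 3.90e-07). AT5G12280 read 8.42, 8.21 and 8.22 in the mutant, 6.42, 6.54 and 6.92 in P35S:rGRF3 and 7.25 to 7.66 in the wild types. Its rise was 0.79 over WS (SE 0.16, adjusted p = 0.00410) and 0.82 over Col-0 (adjusted p = 6.31e-04).

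The rise of AT3G45710 depended on the wild type. It read 11.96, 11.01 and 10.92 in the mutant, 1.61 above WS (SE 0.26, adjusted p = 8.44e-04) and 0.08 from Col-0 (SE 0.26, adjusted p = 0.833). AT1G72700 rose by 0.41 over WS (SE 0.13, adjusted p = 0.0421), a call that was lost without any single WS array and in further alternatives, and by 0.73 over Col-0 (adjusted p = 2.22e-04). AT3G56080 read 9.57, 9.31 and 9.05 in the mutant, 0.70 from WS (adjusted p = 0.310) and 2.58 above Col-0 (adjusted p = 1.41e-04). WS itself read above Col-0 for this gene. AT3G56080 passed the filter through its WS and mutant arrays, so its mutant values describe the choice and do not test it.

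Annotated members that fell in the mutant against WS were BGLU45 and AT1G80180. BGLU45 read 6.56, 6.52 and 6.18 in the mutant, all below the WS arrays and within the range of P35S:rGRF3. It fell by 1.29 against WS (SE 0.39, limma adjusted p = 0.0362) and by 1.12 against Col-0 (adjusted p = 0.0278). The call against WS was lost without any 1 of the 6 arrays compared (adjusted p = 0.0609 to 0.120, with differences of -1.39 to -1.17), after quantile normalization (adjusted p = 0.0627), with no filter (adjusted p = 0.0609) and with robust fitting (adjusted p = 0.0545). AT1G80180 read 10.12, 9.74 and 9.92 in the mutant, 9.55, 9.95 and 10.41 in P35S:rGRF3, and 10.63 to 11.80 in the wild types. It fell by 0.95 against WS (SE 0.24, adjusted p = 0.0152) and by 1.37 against Col-0 (adjusted p = 2.55e-04). Without WS replicate 1 or mutant replicate 2 the call against WS was lost (adjusted p = 0.0769 and 0.0669).

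NdhS and AT3G49790 had the next lowest mutant levels against both wild types. NdhS read 6.70, 6.88 and 5.78 in the mutant, below all wild type arrays, with a difference of -0.86 from WS (SE 0.30, adjusted p = 0.0669) and a fall of 0.90 against Col-0 (adjusted p = 0.0210). Its means of 6.46 in the mutant and 6.34 in P35S:rGRF3 also lie under the filter value, so these sizes rest on dim signals. AT3G49790 read 8.33, 8.09 and 8.35 in the mutant, 8.72 to 9.16 in WS and 7.75, 9.50 and 9.46 in Col-0. It differed by -0.72 from WS (adjusted p = 0.173) and by -0.65 from Col-0 (adjusted p = 0.122). Col-0 replicate 1 was the low array here, as it was for BGLU45 and AT1G80180.

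Of the 12 annotated members with the largest differences of P35S:rGRF3 from the nearer wild type, 3 passed in the mutant against WS and 6 against Col-0. Against WS, AT5G38020 and AT3G45710 rose and BGLU45 fell, where 7.38% of all tested rose and 6.54% fell. Against Col-0, AT3G56080, AT5G38020, AT1G21680 and AT5G39090 rose and BGLU45 and AT5G39020 fell, where the shares were 28.1% and 17%. AT3G56080 passed the filter through its WS and mutant arrays, so its rise is not a test. These counts describe the 12 genes only. Against WS the mutant differed by 0.02 for AT4G39270 (SE 0.11, limma adjusted p = 0.939), by -0.16 for AT1G70880 (SE 0.24, adjusted p = 0.717), by 0.29 for AT5G59000 (SE 0.22, adjusted p = 0.429) and by 0.14 for AT1G68710 (SE 0.19, adjusted p = 0.691). The values for AT1G21680, AT5G39090 and AT5G39020 were 0.33, 0.27 and -0.40, with adjusted p between 0.232 and 0.506. Against Col-0 the first 2 of these rose in the mutant, by 0.67 (adjusted p = 0.00625) and 0.62 (adjusted p = 0.0455), and AT5G39020 fell, as given above. CYP71B28, which lay close to the limit of 0.7, differed in the mutant by 0.21 from WS (adjusted p = 0.286) and by -0.12 from Col-0 (adjusted p = 0.427). A p that misses the threshold does not show that the mutant equals WS.

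Of the 28 symbols of the monolignol and lignin list, 7 genes were tested, and BGLU45 is the only member among them. In P35S:rGRF3 against Col-0, 2 of the 7 fell, where 6.61% of all tested were lower. These were UGT72E1 (-2.09, SE 0.16, limma adjusted p = 4.84e-07) and UGT72E2 (-1.31, SE 0.14, adjusted p = 1.21e-05), which attach glucose to monolignols. Against WS, the ecotype label of that line, their differences were -0.28 (adjusted p = 0.152) and -0.09 (adjusted p = 0.626), so they did not meet the rule. Against WS, across the array sets, HCT, an acyltransferase of monolignol synthesis, was higher by 0.60 (SE 0.10, adjusted p = 1.64e-04), where 19.4% of all tested were higher. From Col-0 it differed by 0.14 (adjusted p = 0.449). BGLU45 was the only 1 of the 7 lower than WS, by its choice (33% of all tested). PRX52, a peroxidase gene of the same list that lay under the filter and was not tested, read 9.87 to 10.35 in P35S:rGRF3, with means of 3.55 to 5.12 in the other genotypes. BGLU46, the close relative of BGLU45, differed from Col-0 by -0.08 (adjusted p = 0.899) and from WS by 0.38 (adjusted p = 0.266). In the mutant against WS 4 of the 7 rose, UGT72E2 by 1.297 (adjusted p = 3.36e-05), UGT72E3 by 0.98 (adjusted p = 0.00130), UGT72E1 by 0.51 (adjusted p = 0.0438) and HCT by 0.33 (adjusted p = 0.0450). BGLU45 was the 1 that fell, where 7.38% of all tested rose and 6.54% fell. Against Col-0 the mutant had 1 of the 7 higher, UGT72E3 by 0.95 (adjusted p = 2.73e-04), and 3 lower (28.1% and 17% of all tested). Those lower were UGT72E1 (-1.31, adjusted p = 7.01e-06), BGLU45 and BGLU46 (-0.87, adjusted p = 0.0166), while UGT72E2 differed by 0.07 (adjusted p = 0.711).

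**Figure D5:**
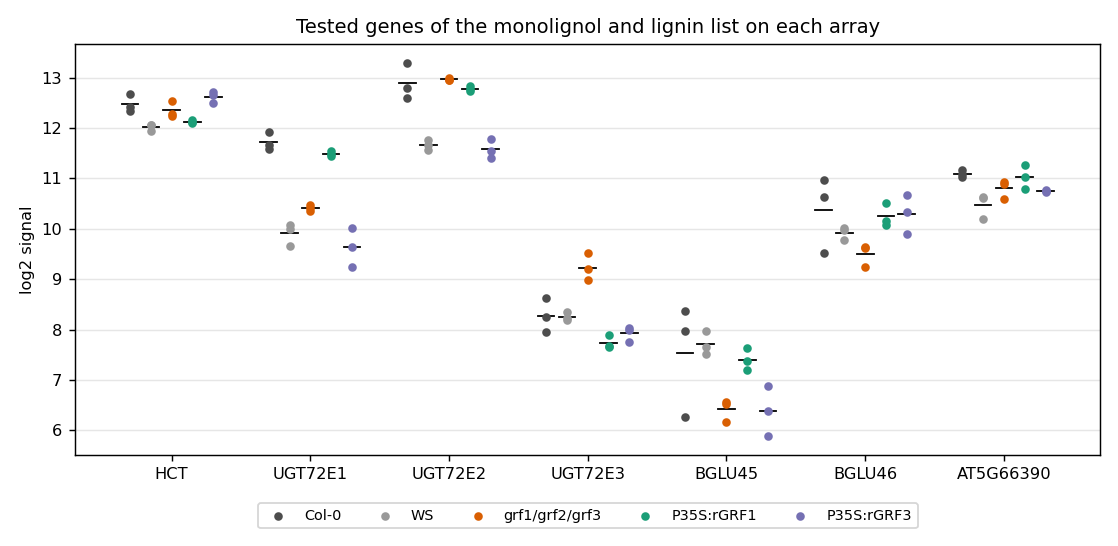
Log2 signal (y axis) of the 7 tested genes of the monolignol and lignin list (x axis) on each array, coloured by genotype, with the mean of 3 arrays as a line. BGLU45 is low in both the mutant (6.18 to 6.56) and P35S:rGRF3 (5.89 to 6.88), and 1 Col-0 array reads 6.26.

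CYP71B28 was the only member among 7 tested genes of the CYP71B family of cytochromes P450. Against Col-0, 3 of the 7 were lower in P35S:rGRF3, CYP71B6 (-1.79), CYP71B34 (-0.65) and CYP71B28 (-1.04), the last by its choice, and CYP71B29 was higher (0.84), where 6.61% of all tested were lower and 5.3% higher. Against WS, across the array sets, CYP71B28 was the 1 that was lower (-0.71, 33% of all tested), by its choice. In the same comparison 4 were higher, as were 19.4% of all tested: CYP71B26 (2.73), CYP71B23 (2.01), CYP71B29 (1.63) and CYP71B6 (0.54). For these 4 genes WS differed from Col-0 by -3.17, -2.32, -0.79 and -2.33. CYP71B26 and CYP71B23 differed from Col-0 in P35S:rGRF3 by -0.45 (adjusted p = 0.154) and -0.31 (adjusted p = 0.235). In the mutant against WS the 7 genes did not pass (adjusted p = 0.0938 to 0.931). Against Col-0, 5 of the 7 were lower in the mutant, where 17% of all tested were: CYP71B26 (-3.14), CYP71B6 (-2.20), CYP71B23 (-2.09), CYP71B29 (-1.32) and CYP71B34 (-0.61). WS was lower than Col-0 for the same 5 genes and for CYP71B28.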

How the data were processed

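The authors deposited 1 intensity value per probe set and array on a linear scale, which the submitters' processing notes credit to MAS5 (version not given in the sources used here). Total RNA was labelled with biotin per the labels' protocols. Detection calls were not used here. The log2 of the deposited intensity was used as it stands, without an offset or a second normalization. Groups follow the labels. Genes were named from the platform annotation and from a gene table of assembly TAIR10.1, from which only names and the order of genes were taken. The brightest probe set stands for a gene that has more than 1. Of the 13648 probe sets tested, 7346 have 1 gene.

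The mutant was compared with WS and Col-0 with limma 3.58.1 in R 4.3.3 (lmFit on 5 group means over 15 arrays, eBayes with a mean-variance trend), two-sided, with Benjamini-Hochberg adjustment over all 13648 and a threshold of 0.05. Every adjusted p is from this fit. Tables were made in Python 3.11.15. Data for the mutant against WS were simulated over 13648 probe sets, with 50 changed 1.5-fold, 100 changed 2-fold and 50 changed 4-fold. The test called 36% of 1.5-fold changes, 89% of 2-fold changes and 100% of 4-fold changes, and 4.85% of calls were false. It made 165 calls there, against 1007 higher and 893 lower on the real arrays, so these shares hold for the simulated setting only. The number of arrays limits the precision.

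The members and the gene lists were chosen with earlier results of these data known. Results are given for lists that hold a member (monolignol and lignin, CYP71B, auxin) and for the tissue lists. Genes were named by a rule: the 12 annotated members with the largest smaller difference, those called against WS (up to 8 per direction), the 4 lowest and 4 highest in the mutant against both wild types, the members of lists and those nearest the limit. Every other annotated member is named once with its family, as is any further value chosen after the values were seen. No sequences are shown. Alternatives are listed in the closing section.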

Additional observations from a re-analysis of the deposited data

How the results depend on the processing

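The number of members, 110, was 95 with an offset of 16 and 88 after quantile normalization. It was 311 with a limit of 0.5 in place of 0.7, 25 with 1, 67 with P35S:rGRF1 within 0.2 of Col-0, 70 with the 60th percentile as filter and 326 with no filter, as these settings loosen or tighten the rule. Without 1 array it was 97 to 172, with 172 without Col-0 replicate 1, of which 93 were among the 110. Members lower in the mutant than in WS, 8, were 19 with array weights, 16 with only the arrays of the 2 groups and 3 to 15 without 1 array. Members higher than in WS, 16, were 11 to 23 over the alternatives and 12 to 18 without 1 array. Members higher than in Col-0, 39, were 20 with the 60th percentile filter, which leaves 70 members, and 29 to 41 without 1 array, and those lower, 14, were 8 to 18 without 1 array (8 without Col-0 replicate 2). The medians against WS and Col-0 were 0.03 to 0.12 and 0.08 to 0.18 without 1 array. Deviations of same-numbered mutant and WS arrays correlated at -0.09 to 0.07, so the arrays share only a number. With the replicate block 14 members were higher and 9 lower than in WS, and 38 higher and 14 lower than in Col-0. The counts of called members are not set against the share of all tested probe sets called under each alternative. They also do not allow for the changed number of members, so they describe the members only. The cause of these shifts was not tested. Of the values of named genes against WS under the alternatives, 465 stayed on the same side of the threshold, 22 lost and 8 gained a call, and 2 uncalled values changed sign (AT4G39270). Dim signals limit the sizes for 26 members whose P35S:rGRF3 mean lay under the filter value.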

Other observations

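Among members with no gene in the annotation, the probe sets 248727_at and 248728_at were chosen here after their values were seen. They read 9.85 to 10.26 and 9.38 to 10.23 in P35S:rGRF3, 10.59 to 11.35 and 10.22 to 11.22 in Col-0, and 10.83 to 10.98 and 10.51 to 10.82 in WS. Their mutant arrays, at 12.28 to 12.58 and 11.81 to 12.32, lay above all wild type arrays. They rose against WS by 1.48 (SE 0.16, limma adjusted p = 2.83e-05) and 1.40 (SE 0.23, adjusted p = 9.26e-04). The probe set 254215_at was low in both genotypes, at 9.30 to 9.54 in the mutant and 9.64 to 9.83 in P35S:rGRF3, against 10.29 to 11.60 in the wild types. It fell in the mutant by 1.22 against WS (SE 0.22, adjusted p = 0.00164).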
